A study of Mus musculus with 7 samples.

Results

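The ERK pathway feedback inhibitors are a set of 10 genes, chosen by name and grouped here as regulators of the Ras-ERK cascade: the phosphatases Dusp1, Dusp4, Dusp5 and Dusp6, the Sprouty genes Spry1, Spry2 and Spry4, the Spred genes Spred1 and Spred2, and Ier3. All 10 were found among the 24346 genes of the expression table, and all 10 were among the 14151 genes with a mean of at least 0.5 FPKM that were tested. Between Med23 CKO and control neurospheres no member differed by more than the spread between libraries. Among the libraries of 1 genotype, however, Spry1, Spry2, Spry4 and Spred2 took widely different levels and did so together, and Spry1 ranged 5.64-fold among the control libraries alone.

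The libraries hold RNA of primary neurospheres, spheres of cells grown in suspension from adult hippocampus in medium with EGF and FGF, measured as FPKM (fragments scaled to the length of the transcript and to the number of mapped fragments). Each library came from 1 mouse of the C57/BL6 strain. The control group has 4 libraries (WT_215, WT_116, WT_213 and WT_220), labelled wild type, and the methods give the control littermates as Med23 flox/+ or Med23 flox/flox. The Med23 CKO group has 3 libraries (KO_117, KO_214 and KO_218) of Nestin-CreER:Med23 flox/flox mice, in which tamoxifen activates a Cre recombinase driven by Nestin regulatory sequence, so that floxed exons are lost in cells that express it. Both groups received tamoxifen by gavage at 200 mg/kg once a day for 5 days, and the labels give 3 to 4 weeks of recovery before most uses of the mice. The labels give an age of 2 months, while the culture methods place the tamoxifen 1 month after birth. Neurospheres are a mixture that can hold stem cells, their progeny and other brain cells, and the share of cells that had lost the floxed exons was not measured in these libraries.

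The ERK cascade carries signals from receptor tyrosine kinases, such as those for EGF and FGF, through Ras, Raf and MEK to the ERK kinases. Active ERK switches on genes whose products then dampen the same cascade, so that the levels of these transcripts are widely read as a record of recent pathway activity. Dual-specificity phosphatases remove the activating phosphates from ERK, Sprouty and Spred proteins act higher up, between the receptors and Raf, and Med23 is the Mediator subunit that the ERK-phosphorylated factor Elk1 contacts at its target genes. In neural stem cells the cascade is known for its part in proliferation under EGF and FGF.

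The promoters of 8 members are in the RefSeq table for GRCm38.p6 (mm10), and 5 are printed here, each as the 250 bases before the annotated start. The windows of Dusp1 and Dusp5 are given because they hold sites of the kind bound by CREB and by the serum response factor, and those of Spred2, Spry1 and Spry2 because these genes varied together across libraries. Capitals mark a CRE core (TGACG), a full CRE (TGACGTCA) or a CArG box, on either strand. The windows lie at chr17:26508473-26508722 on the minus strand (Dusp1), chr19:53528895-53529144 on the plus strand (Dusp5), chr11:19924192-19924441 on the plus strand (Spred2), chr3:37639697-37639946 on the plus strand (Spry1) and chr14:105896820-105897069 on the minus strand (Spry2).
Dusp1: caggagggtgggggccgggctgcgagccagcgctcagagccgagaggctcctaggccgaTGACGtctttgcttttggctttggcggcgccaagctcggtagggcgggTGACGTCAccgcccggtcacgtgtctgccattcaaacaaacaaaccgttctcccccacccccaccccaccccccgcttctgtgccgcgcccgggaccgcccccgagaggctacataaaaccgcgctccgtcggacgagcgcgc
Dusp5: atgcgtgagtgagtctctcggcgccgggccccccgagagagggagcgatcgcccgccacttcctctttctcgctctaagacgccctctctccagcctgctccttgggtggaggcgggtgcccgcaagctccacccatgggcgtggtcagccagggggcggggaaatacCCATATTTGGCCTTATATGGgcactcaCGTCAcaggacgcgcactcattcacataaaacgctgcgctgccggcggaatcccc
Spred2: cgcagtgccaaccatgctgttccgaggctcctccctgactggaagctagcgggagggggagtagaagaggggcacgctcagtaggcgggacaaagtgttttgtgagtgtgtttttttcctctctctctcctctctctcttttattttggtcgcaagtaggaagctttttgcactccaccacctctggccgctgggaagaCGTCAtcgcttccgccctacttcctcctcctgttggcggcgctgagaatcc
Spry1: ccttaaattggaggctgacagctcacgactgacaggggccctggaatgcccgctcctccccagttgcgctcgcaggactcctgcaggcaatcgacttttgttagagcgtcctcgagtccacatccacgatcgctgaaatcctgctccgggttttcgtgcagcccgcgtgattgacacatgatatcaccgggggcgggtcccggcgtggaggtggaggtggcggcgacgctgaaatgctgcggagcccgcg
Spry2: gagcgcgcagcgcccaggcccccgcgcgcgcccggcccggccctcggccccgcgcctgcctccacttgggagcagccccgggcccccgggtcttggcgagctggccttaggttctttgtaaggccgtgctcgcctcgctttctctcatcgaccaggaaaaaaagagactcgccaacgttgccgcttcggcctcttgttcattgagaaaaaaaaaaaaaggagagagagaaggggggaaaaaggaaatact

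In Dusp1 the full CRE began 143 bases before the start, where its letters also contain a CRE core on each strand, and a further core lay at 191 bases. Dusp5 held 2 adjoining CArG boxes, at 82 and 72 bases before the start, and a CRE core on the opposite strand at 55 bases. Spred2 held a CRE core on the opposite strand at 51 bases. Among the 8 windows, 3 held a CRE core, against 17.8% of 32851 promoter windows of the same length; 1 held a full CRE (1.55% of all windows) and 1 a CArG box (1.47%). The Ets motif CCGGAA (12% of all windows), the AP-1 site TGANTCA (6.75%) and TATAAA (12.4%) were in 0 of the 8. Shorter Ets motifs such as GGAA, which the printed windows do hold, were not counted. The GC-rich box GGGCGG was in 6 of 8 (32.7% of all windows). GC content was 68.4% in the Dusp1 window, 64.0% in that of Dusp5, 62.4% in those of Spry1 and Spry2 and 56.0% in that of Spred2, against a median of 52.4% over all windows.

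Med23 was measured at 11.4 FPKM in WT_215, 10.3 in WT_116, 12.9 in WT_213 and 10.1 in WT_220. In the libraries labelled CKO it was 9.97 FPKM for KO_117, 9.27 for KO_214 and 8.12 for KO_218. The Med23 CKO values all lay below the control values, by a small margin, with a log2 fold change of -0.26 (SE 0.18, limma unadjusted p = 0.175, exact permutation p = 0.0571). With array weights in limma the log2 fold change was -0.43 (unadjusted p = 0.0205, adjusted p = 0.594). FPKM was computed over the whole gene, so it does not measure the floxed exons by themselves. The paper reports the deletion by other means, qRT-PCR of Med23 in primary neurospheres and western blot of hippocampal tissue. Read depth is not known from FPKM, and the number of libraries limits the precision. Between 16841 and 18113 genes had a value above 0 in a library, and the 10 highest genes held 12.2% of the summed FPKM in KO_214 and 5.12% to 8.61% elsewhere. KO_214 also had the highest summed level of microglia and macrophage markers (14 of 14 above 0 in every library), 1528 FPKM, against 65.9 and 281 FPKM in the other Med23 CKO libraries and 66.2 to 378.5 FPKM in controls. Stem cell and radial glia markers were above 0 in every library for 10 of 10 genes, with summed levels of 1887 to 3853 FPKM in controls and 2066 to 3851 FPKM in Med23 CKO. Xist, which is transcribed from the inactive X chromosome, stood at 91.3 FPKM in WT_220 and 110.8 FPKM in KO_218 and at no more than 0.565 FPKM in the other libraries.

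The first comparison asks whether the feedback inhibitors differed between Med23 CKO and control neurospheres. By limma on log2(FPKM + 1), 0 of the 10 members had an unadjusted p under 0.05 with lower values in Med23 CKO and 0 with higher values, against 0.996% of the 14151 tested genes lower (141 genes) and 0.502% higher (71 genes). At an adjusted p under 0.05, limma called 0 members, and it called 0% of all genes. In 0 members did the Med23 CKO values all lie below the control values (1.53% of all genes) or all above them (0.784%). The log2 fold change, here the difference between groups in mean log2(FPKM + 1), is not the ratio of the mean FPKM values. It was positive for 3 members and negative for 7, and negative for 7955 of all 14151 genes. Its median was -0.14 over the members and -0.03 over all genes tested. Adjusted p was 0.9999 for every member. Exact permutation over the 35 ways to assign 7 libraries to groups of 4 and 3 cannot give a p below 0.0286, and the lowest value for a member was 0.143, reached by Dusp4 and Dusp5.

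**Figure D1:**
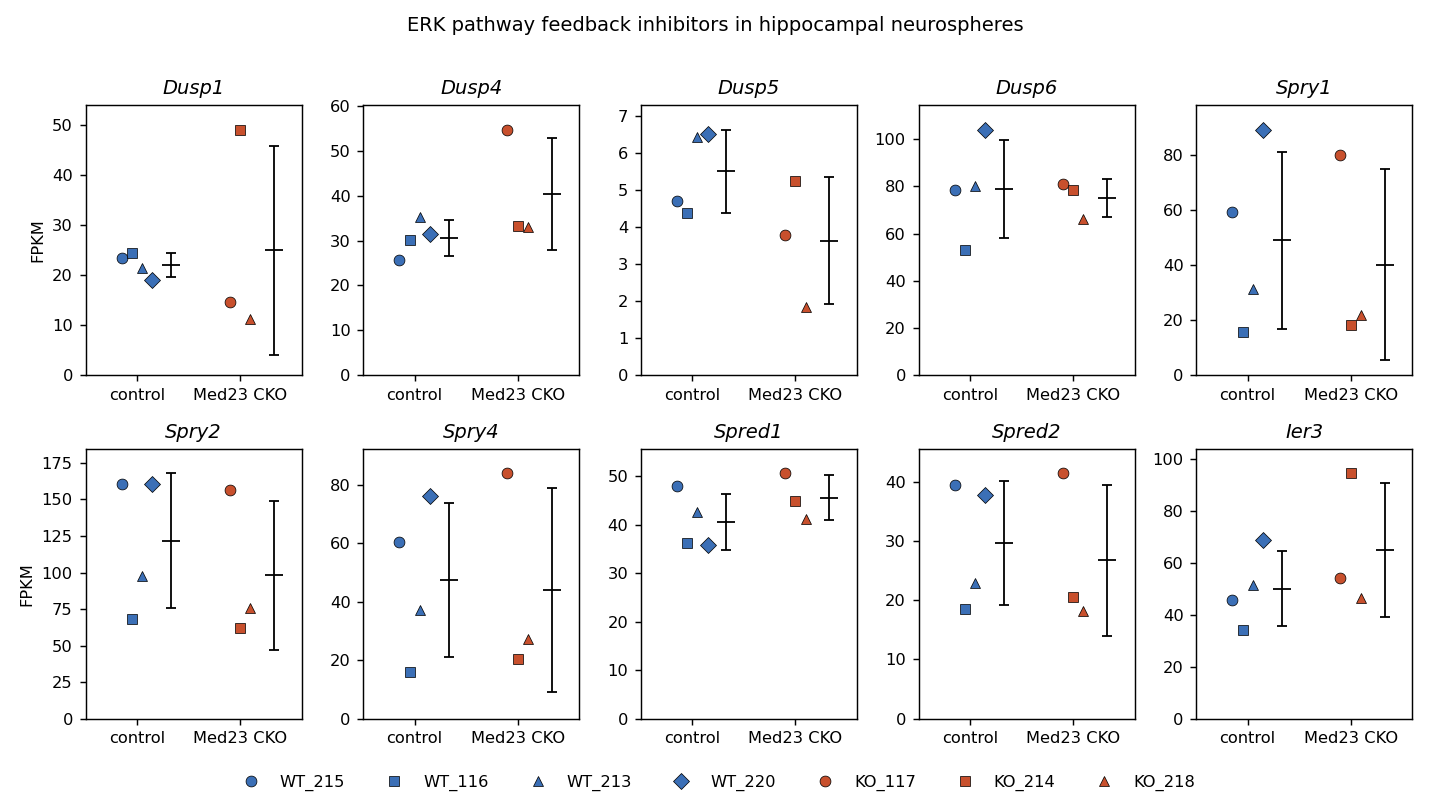
Level of each of the 10 genes in FPKM (y axis, linear from 0) in control and Med23 CKO libraries. Each symbol is 1 library, and the bars give the mean and SD of 4 control and 3 Med23 CKO libraries; control and Med23 CKO overlap for every gene, and Spry1, Spry2, Spry4 and Spred2 are each high in WT_215, WT_220 and KO_117.

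Of the phosphatases, Dusp6 encodes a cytoplasmic enzyme with a strong preference for ERK. Its level (chr10:99263231-99267489) was 78.4, 52.9, 80.0 and 104 FPKM in the controls (WT_215, WT_116, WT_213 and WT_220, in this order throughout) against 81.1, 78.5 and 66.0 FPKM in KO_117, KO_214 and KO_218. The Med23 CKO values sat inside the range of the controls, whose lowest was WT_116 and highest WT_220. The control mean was 78.8 ± 20.9 FPKM (SD, n = 4) and the CKO mean 75.2 ± 8.05 FPKM (SD, n = 3). The log2 fold change was -0.03 (SE 0.24, 95% interval -0.59 to 0.52, limma unadjusted p = 0.894). The interval excludes neither a modest decrease nor a modest increase.

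Dusp5, a nuclear phosphatase that acts on ERK, was the lowest expressed member (chr19:53529145-53541809). It had 4.72, 4.39, 6.43 and 6.53 FPKM in the control libraries and 3.80, 5.26 and 1.83 FPKM in KO_117, KO_214 and KO_218. KO_117 and KO_218 lay below every control, and KO_214 lay among them. The means were 5.52 ± 1.12 FPKM (SD, n = 4) and 3.63 ± 1.72 FPKM (SD, n = 3), with a log2 fold change of -0.55 (SE 0.31, 95% interval -1.27 to 0.17, limma unadjusted p = 0.114, exact permutation p = 0.143). Dusp5 had the most negative fold change of the 10. Without KO_214 the log2 fold change was -0.81 with a limma unadjusted p of 0.0332 and an adjusted p of 1.0, and without KO_218 it was -0.23 with an unadjusted p of 0.402.

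Dusp1, an immediate early gene whose nuclear product also acts on the stress kinases p38 and JNK (chr17:26505591-26508472), had 23.4, 24.4, 21.3 and 18.9 FPKM in the controls and 14.6, 49.0 and 11.2 FPKM in KO_117, KO_214 and KO_218. The controls were close together, KO_117 and KO_218 were below all of them and KO_214 was far above all of them. The means were 22.0 ± 2.41 FPKM (SD, n = 4) and 24.9 ± 20.9 FPKM (SD, n = 3), and the log2 ratio of these means was 0.18. On log2(FPKM + 1), where KO_214 weighs less, the log2 fold change had the opposite sign, -0.11 (SE 0.46, 95% interval -1.18 to 0.95, limma unadjusted p = 0.812). Without KO_214 the log2 fold change was -0.73 (limma unadjusted p = 0.0101, adjusted p = 1.0), and without KO_218 it was 0.28. KO_214 is the library with the highest microglia and macrophage markers, and the part of those cells in the Dusp1 level was not tested. In bulk RNA fewer cells of a type and less RNA per cell cannot be told apart.

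Dusp4, another nuclear phosphatase for ERK and other MAP kinases (chr8:34807610-34819894), had 25.6, 30.1, 35.3 and 31.5 FPKM in the controls and 54.7, 33.2 and 32.9 FPKM in KO_117, KO_214 and KO_218. KO_117 was above all other libraries, whereas KO_214 and KO_218 were within the control range, under WT_213. The means were 30.6 ± 4.02 FPKM (SD, n = 4) and 40.3 ± 12.5 FPKM (SD, n = 3). The log2 fold change was 0.35 (SE 0.23, 95% interval -0.18 to 0.88, limma unadjusted p = 0.164) and was 0.11 without KO_117. In KO_117 the 8 oligodendrocyte lineage markers, all above 0 in every library, had their lowest summed level, 2235 FPKM, against 2670 and 2783 FPKM in the other Med23 CKO libraries and 2590 to 4641 FPKM in the controls; their part in the Dusp4 level was not tested.

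The Sprouty genes encode membrane-associated inhibitors that act between growth factor receptors and Raf. Spry2 was the most abundant member (chr14:105891947-105896819), with 160 FPKM in WT_215, 68.3 in WT_116, 97.7 in WT_213 and 160 in WT_220, and with 157, 61.8 and 75.7 FPKM in KO_117, KO_214 and KO_218. WT_215, WT_220 and KO_117 stood together at the top and the remaining libraries were lower in both genotypes. Its log2 fold change was -0.34 (SE 0.42, 95% interval -1.32 to 0.64, limma unadjusted p = 0.440). The means were 122 ± 46.3 FPKM (SD, n = 4) and 98.1 ± 51.2 FPKM (SD, n = 3).

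Spry1 (chr3:37639947-37644599) had 59.4, 15.8, 31.3 and 89.1 FPKM in the controls and 80.1, 18.3 and 21.9 FPKM in KO_117, KO_214 and KO_218. The same libraries were high, and the spread was wider: the highest value was 5.64 times the lowest among controls and 4.38 times among Med23 CKO. The means were 48.9 ± 32.3 FPKM (SD, n = 4) and 40.1 ± 34.7 FPKM (SD, n = 3), and the log2 fold change was -0.33 (SE 0.69, 95% interval -1.95 to 1.28, limma unadjusted p = 0.646). So wide an interval leaves room for a difference of more than 2-fold in either direction.

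Spry4 (chr18:38586247-38601347) was high and low in the same libraries, with 60.4, 16.0, 37.2 and 76.2 FPKM in the controls and 84.0, 20.5 and 27.3 FPKM in KO_117, KO_214 and KO_218. KO_117 had the highest level of all and WT_116 the lowest, so the extremes came from different genotypes. With means of 47.5 ± 26.4 FPKM (SD, n = 4) and 44.0 ± 34.9 FPKM (SD, n = 3), the log2 fold change was -0.17 (SE 0.64, 95% interval -1.65 to 1.32, limma unadjusted p = 0.798). Within groups, the SD on the log2 scale was 1.09 for Spry1, 0.998 for Spry4 and 0.638 for Spry2, against a median of 0.378 over all genes tested. The SD of Spry1 exceeded that of 93.7% of the genes tested.

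The Spred genes encode Sprouty-related proteins that bring neurofibromin to Ras, and the pair differed in how much they varied. Spred2 (chr11:19924442-20024026) had 39.4, 18.6, 22.9 and 37.9 FPKM in the controls and 41.5, 20.6 and 18.3 FPKM in KO_117, KO_214 and KO_218, again with WT_215, WT_220 and KO_117 on top. Spred1 (chr2:117121071-117182279) had 47.9, 36.2, 42.6 and 35.8 FPKM in the controls and 50.6, 44.8 and 41.2 FPKM in Med23 CKO. Its libraries lay close together, with a within-group SD of 0.178 on the log2 scale, lower than that of all but 12.1% of the genes tested. Means were 29.7 ± 10.5 FPKM (SD, n = 4) against 26.8 ± 12.8 FPKM (SD, n = 3) for Spred2, and 40.6 ± 5.77 FPKM (SD, n = 4) against 45.5 ± 4.71 FPKM (SD, n = 3) for Spred1. The log2 fold change was -0.17 for Spred2 (SE 0.37, 95% interval -1.04 to 0.70, limma unadjusted p = 0.661) and 0.17 for Spred1 (SE 0.17, 95% interval -0.23 to 0.57, limma unadjusted p = 0.359).

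Ier3, an immediate early gene whose product is phosphorylated by ERK and, unlike the phosphatases, can also prolong ERK activity (chr17:35821713-35822911), had 45.6, 34.3, 51.6 and 68.6 FPKM in the controls and 54.1, 94.5 and 46.6 FPKM in KO_117, KO_214 and KO_218. KO_214 was the highest library, and the other Med23 CKO libraries lay among the controls. The means were 50.0 ± 14.3 FPKM (SD, n = 4) and 65.1 ± 25.8 FPKM (SD, n = 3). The log2 fold change was 0.35 (SE 0.31, 95% interval -0.39 to 1.08, limma unadjusted p = 0.304), and it was 0.05 without KO_214, in which Dusp1 was also highest.

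**Figure D2:**
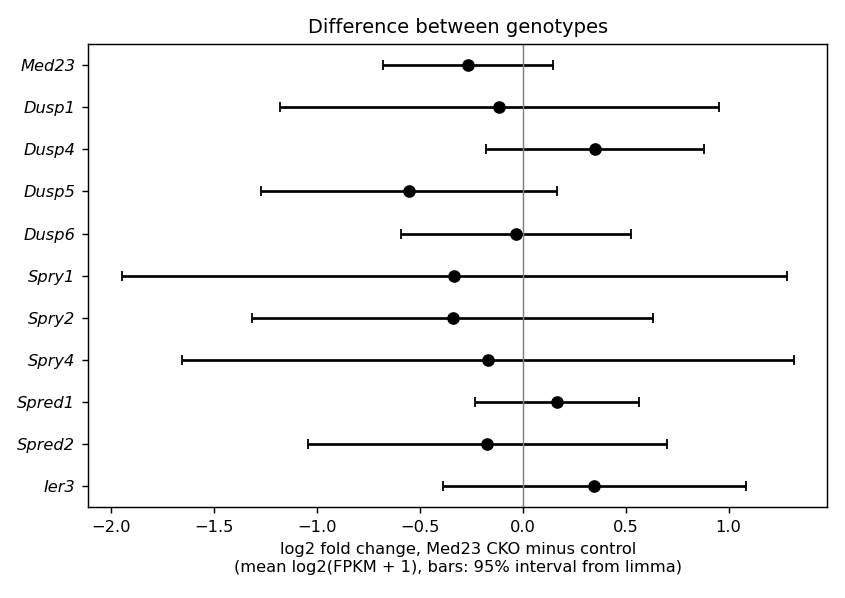
Log2 fold change of Med23 and the 10 genes (x axis, Med23 CKO minus control in mean log2(FPKM + 1)), with bars for the 95% interval from limma. All 11 intervals include 0, and they are widest for Spry1 (-1.95 to 1.28) and narrowest for Spred1 (-0.23 to 0.57).

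The second comparison is among libraries: which members moved together, whatever the genotype. Over the 7 libraries, log2(FPKM + 1) of Spry1 had a Pearson correlation of 0.988 with Spry4, 0.976 with Spry2 and 0.961 with Spred2. Spry4 and Spry2 correlated at 0.967, Spry2 and Spred2 at 0.962, and Spry4 and Spred2 at 0.941. These are descriptions over 7 points from 1 table, in which all genes of a library share its cells and its depth. Leaving out the libraries farthest from the median of Spry1 gave 0.985 for Spry1 with Spry4 over 5 libraries, and taking each group's deviations from its own mean gave 0.991.

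Over all 7 libraries the remaining members had lower correlations with these 4 genes. Dusp6 had correlations of 0.770 with Spry1 and 0.764 with Spry4, and Spred1 had 0.268 with Spry1. Over the 5 libraries nearest to the median of Spry1 the value for Spred1 was 0.744, so how far Spred1 stands apart depends on the libraries included. Dusp1 correlated with the Sprouty genes and Spred2 at between -0.19 and -0.42 and with Ier3 at 0.512. The value with Ier3 rests on few libraries, with a rank correlation of 0.0 and a Pearson correlation of -0.617 over the 5 libraries nearest to the median of Dusp1. The median over the 45 pairs of members was 0.287.

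**Figure D3:**
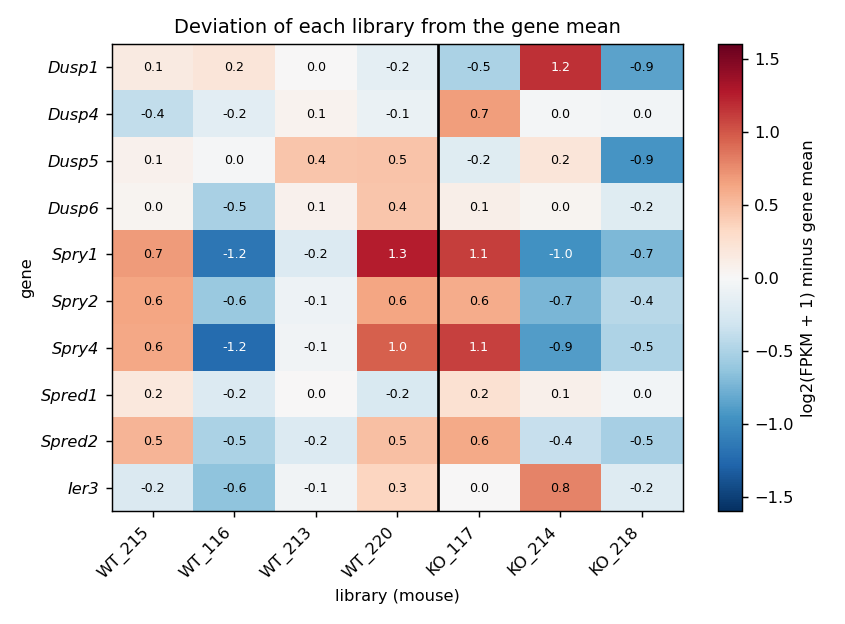
Deviation of each library (columns, 4 control left of the line and 3 Med23 CKO right of it) from the mean of each gene (rows), in log2(FPKM + 1), red above and blue below the mean. The rows of Spry1, Spry2, Spry4 and Spred2 carry the same signs in every library, whereas Dusp1 and Ier3 deviate most in KO_214.

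**Figure D4:**
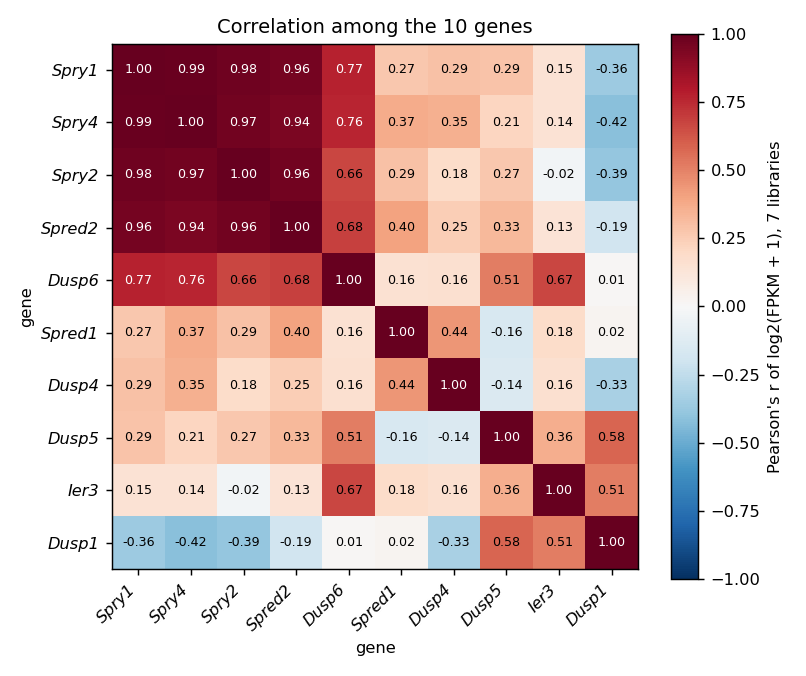
Pearson's r between log2(FPKM + 1) of each pair of the 10 genes over 7 libraries. Spry1, Spry4, Spry2 and Spred2 form a block with every r at or above 0.941, and Dusp1 has negative values with all 4.

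A pattern of this kind was common in these libraries. Spry1 correlated above 0.9 with 1892 of the other 14150 tested genes (13.4%) and under -0.9 with 1439 (10.2%), and the counts above 0.9 were 1754 for Spry2, 1590 for Spry4 and 1832 for Spred2. By contrast Dusp1 had 136 such genes, Dusp6 41, Dusp5 40, Ier3 36 and Dusp4 and Spred1 20 each. Spry4 was only the 37th of the 14150 in its likeness to Spry1, Spry2 the 212th and Spred2 the 571st.

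Genes of the same cascade were found on both sides. Of the 73 tested genes in the pathway lists, 11 correlated with Spry1 above 0.9 (15.1%, beside 13.4% of all genes) and 5 under -0.9 (6.85%, beside 10.2%), and the median over the 73 was 0.183. The Ets factors Etv4 and Etv5, which FGF signaling induces, correlated with Spry1 at 0.996 and 0.967. Etv1, of the same family, correlated with Spry1 at only 0.082. Etv4 had 42.8, 10.99, 18.8 and 62.3 FPKM in the controls and 57.7, 10.96 and 15.2 FPKM in KO_117, KO_214 and KO_218, high in the same libraries as the Sprouty genes. Egfr, the EGF receptor, correlated with Spry2 at 0.968 and with Spry1 at 0.919, Spred3 with Spry2 at 0.979, and Erf, an Ets repressor that ERK controls, with Spry2 at 0.977. The 5 genes on the other side were Fgfr2 (-0.963), Epha4 (-0.938), Fosl1 (-0.935), Errfi1 (-0.908) and Erbb3 (-0.902), so that receptors, ERK-induced genes and an inhibitor were among them. All these genes were picked out after their values were seen.

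Cell type markers moved with the same libraries. The mean log2(FPKM + 1) of the 11 cell cycle genes correlated with Spry1 at 0.888, Spry2 at 0.923, Spry4 at 0.902 and Spred2 at 0.818. Their summed level was 1061, 389.9, 570.9 and 1095 FPKM in the controls and 1433, 242.8 and 678.8 FPKM in KO_117, KO_214 and KO_218, highest in the libraries where the Sprouty genes were high. The mean of the 10 stem cell and radial glia markers correlated with Spry1 at 0.941, and that of the 14 microglia and macrophage markers at -0.821. The stem cell list did not move as 1 group. Nes had 185.7 FPKM in WT_220, 240.5 in KO_117 and 61.1 in KO_214, whereas Gfap had 17.8, 19.4 and 321 FPKM in these libraries. Prom1 went with Gfap, at 2.46, 2.64 and 10.96 FPKM. Endothelial markers (8 of 8 above 0 in every library) had summed levels of 7.68 to 61.1 FPKM in controls and 6.28 to 104.6 FPKM in Med23 CKO, and mural cell and fibroblast markers (7 of 7) 8.39 to 81.4 FPKM and 6.18 to 304.9 FPKM, with correlations to Spry1 of -0.805 and -0.671. Neuron and neuroblast markers (7 of 7) had summed levels of 107.5 to 161.7 FPKM in controls and 77.7 to 207 FPKM in Med23 CKO. In the 7 marker lists 0 genes had a limma unadjusted p under 0.05, beside 0.996% of all tested genes lower and 0.502% higher. The log2 fold change was positive for all 13 tested microglia, 8 endothelial and 7 mural and fibroblast markers. KO_214 was the highest library for 12, 8 and 7 of these, beside 25.4% of all tested genes. Negative log2 fold changes were found for all 11 cell cycle genes, 8 of 10 stem cell, 4 of 7 neuron and 7 of 8 oligodendrocyte lineage markers. The part of cell composition or proliferation in the levels of the Sprouty genes was not tested.

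**Figure D5:**
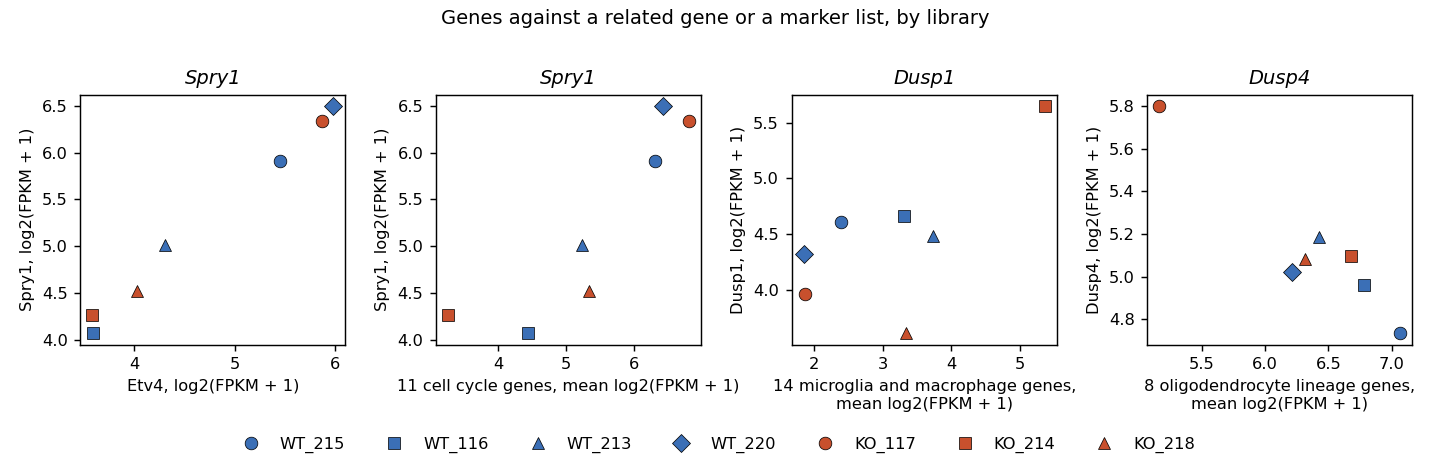
Spry1 against Etv4 and against the mean of 11 cell cycle genes, Dusp1 against 14 microglia and macrophage genes, and Dusp4 against 8 oligodendrocyte lineage genes, all in log2(FPKM + 1), 1 point per library. Spry1 follows Etv4 (r = 0.996) and the cell cycle genes (r = 0.888) in both genotypes, while the top Dusp1 value is KO_214 and the top Dusp4 value is KO_117.

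Dusp1 took the opposite side. Its Pearson correlation was 0.676 with the microglia and macrophage markers, 0.781 with the mural and fibroblast markers and -0.706 with the cell cycle genes. The rank correlations were 0.43, 0.57 and -0.71, in the same order. With the oligodendrocyte lineage markers the Pearson correlation was 0.524 and the rank correlation 0.75, by rank the largest in size of the marker lists. KO_214 was the highest library for Dusp1, for 12 of 13 tested microglia and macrophage markers and for all 7 mural and fibroblast markers, beside 25.4% of all tested genes. For Dusp4 the correlation with the mean of the oligodendrocyte lineage markers was -0.946, with KO_117 at 1 end and WT_215 at the other, but the rank correlation (Spearman's rho) was -0.679. The list did not move as 1 group: in KO_117 the myelin genes Mbp (66.5 FPKM) and Mog (2.28 FPKM) were at their lowest of all libraries, while Olig1 (1586 FPKM), Olig2 (505.0 FPKM) and Cspg4 (47.2 FPKM) were the second highest. In Dusp6 the largest Pearson correlations were with neuron and neuroblast markers, at -0.796, and with stem cell markers, at 0.747. The rank correlations were only -0.43 and 0.57, and by rank the oligodendrocyte lineage markers were higher in size, at -0.68 (Pearson -0.307). WT_116 had the lowest Dusp6 and the highest mean of the neuron markers. That list was split too: in KO_117 Dcx, Tubb3, Map2 and Elavl3 were at their highest and Neurod1 and Stmn2 at their lowest.

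Numbers in the mouse names begin with 1 for WT_116 and KO_117 and with 2 for the remaining libraries, and the labels do not say whether this marks a batch. Between WT_116 and KO_117 the log2 difference was 2.27 for Spry1, 2.32 for Spry4, 1.19 for Spry2 and 1.12 for Spred2, with KO_117 the higher. Among the 3 control and 2 Med23 CKO libraries whose number begins with 2, the difference was -1.42 for Spry1, -1.20 for Spry4, -0.98 for Spry2 and -0.72 for Spred2. The direction was therefore opposite in the 2 sets for these 4 genes, with 1 library per genotype in the first. It was opposite too for Dusp6 (0.61 in the first and -0.27 in the second) and Dusp1 (-0.70 and 0.16). Dusp5 was negative in both (-0.17 and -0.70) and Dusp4, Spred1 and Ier3 were positive in both.

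By level, which FPKM gives per length of transcript, the order of mean FPKM over the 7 libraries was Spry2 (111.6), Dusp6 (77.3), Ier3 (56.5), Spry4 (46.0), Spry1 (45.1), Spred1 (42.7), Dusp4 (34.8), Spred2 (28.4), Dusp1 (23.3) and Dusp5 (4.71). Spry2 stood above 95% of the tested genes and Dusp5 above 28.6%. Dusp1 exceeded Dusp5 in 7 of 7 libraries, the only neighbors in this order that did not cross. Spry2 exceeded Dusp6, and Dusp6 exceeded Ier3, in 6 of 7, while Spry1 exceeded Spred1 in just 3 of 7.

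Genes around the 10 were counted from lists of the same pathway. Of 10 relatives outside the set (other Dusp genes, Spry3 and Spred3), 8 were tested, Spry3 was listed at 0 in every library, and the log2 fold change was negative for 7 and positive for 1, with 0 at a limma unadjusted p under 0.05 in either direction and a median of -0.27. The most abundant were Dusp3, Dusp7 and Dusp10. Dusp7, a cytoplasmic ERK phosphatase, had 21.1, 28.6, 18.6 and 18.3 FPKM in the controls and 15.1, 30.7 and 14.6 FPKM in KO_117, KO_214 and KO_218, the same rank order as Dusp1 in all 7 libraries.

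Among receptors for EGF, neuregulin and FGF, 7 of 8 were tested, 3 with positive and 4 with negative log2 fold changes. By limma only Fgfr3, a receptor found on astrocytes and radial glia, had an unadjusted p under 0.05. Its control mean was 28.1 ± 15.8 FPKM (SD, n = 4) and its CKO mean 10.7 ± 4.99 FPKM (SD, n = 3). The log2 fold change was -1.28 (SE 0.48, limma unadjusted p = 0.0295, adjusted p = 0.9999, exact permutation p = 0.0857). Its library values, 20.3, 14.2, 27.6 and 50.3 FPKM against 5.31, 15.2 and 11.5 FPKM, overlapped where KO_214 exceeded WT_116. Erbb2, at a mean of only 0.805 FPKM, had all Med23 CKO values above the controls, as did 0.784% of all genes (limma unadjusted p = 0.136, exact permutation p = 0.0286). Fgfr1 and Egfr were the other most abundant receptors. Control and CKO means of Fgfr1 were 47.1 ± 7.39 FPKM (SD, n = 4) and 62.9 ± 7.85 FPKM (SD, n = 3), and those of Egfr 31.7 ± 12.9 FPKM (SD, n = 4) and 22.4 ± 16.4 FPKM (SD, n = 3).

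Downstream of the receptors, 13 adaptors and Ras regulators were tested, 5 with positive and 8 with negative log2 fold changes, 0 of them at a limma unadjusted p under 0.05 and with a median of -0.02. Ptpn11, Gab1 and Grb2, which link receptors to Ras, were the most abundant. Of the 14 genes for Ras, Raf, MEK, ERK and RSK, 7 were positive and 7 negative around a median of -0.00. Araf was the most abundant of this list, and all its Med23 CKO values lay below the control values.

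Rps6ka2, which encodes the ERK-activated kinase RSK3, was the 1 gene of the core cascade with an unadjusted p under 0.05. It had 8.08, 5.85, 7.72 and 6.49 FPKM in the controls and 14.7, 13.1 and 8.13 FPKM in KO_117, KO_214 and KO_218. The CKO values all exceeded the controls, although KO_218 exceeded WT_215 by a small margin. The log2 fold change was 0.66 (SE 0.24, limma unadjusted p = 0.0277, adjusted p = 0.9999, exact permutation p = 0.0286).

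Other inhibitors of receptor or ERK signaling, 12 in number, had 7 positive and 5 negative log2 fold changes with a median of 0.21 and 0 genes at a limma unadjusted p under 0.05, and Pebp1, Lrig1 and Lztr1 were the most abundant. A list of 19 other genes downstream of ERK, among them Elk1, which ERK phosphorylates, had 18 negative log2 fold changes and 1 positive. The median was -0.40, beside -0.03 over all 14151 genes tested, of which 7955 were negative. Single libraries weighed on many of the 19. KO_117 was the lowest for 9 and KO_218 for 5, beside 20.6% and 23.8% of all genes, and WT_220 was the highest for 10 (15.1%). In this list only Egr1, a zinc finger factor and target of Elk1, had an unadjusted p under 0.05. Its log2 fold change was -2.20 (SE 0.86, limma unadjusted p = 0.0353, adjusted p = 0.9999, exact permutation p = 0.114). The most abundant were Ccnd1, which encodes cyclin D1, Etv5 and Jun.

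Likeness to each member was ranked by Pearson correlation over the 7 libraries among genes with a mean of at least 5 FPKM, members left out. The closest genes were Phf21a for Spred2 (0.998), Tet3 for Spry2 (0.997), Zfp428 for Spry1 (0.997) and Klhl42 for Spry4 (0.996). For Dusp1 they were Rhob (0.989), Lpin2 (0.986) and Dmpk (0.978), and for Dusp5 Tchp (0.986), Trim39 (0.980) and Higd2a (0.973). Spred1 was nearest to Ddr2 (0.984), Dusp6 to Lysmd2 (0.974), Dusp4 to Amotl1 (0.970) and Ier3 to Coro1a (0.944). The next in line were Eif4a3 and B4galt2 for Spry1, Trib2 and Kif21b for Spry2, Plcl2 and Ctnnd2 for Spry4, Glis2 and Srcap for Spred2, Sec63 and Dock11 for Spred1, Scarf2 and Rbm15 for Dusp6, Upp1 and Car9 for Dusp4, and Kifc3 and Slc39a11 for Ier3. With 7 libraries and 14151 genes tested, high values of this kind arise easily, and some rest on few libraries: without the libraries farthest from the median, Dusp4 with Car9 went from 0.952 to 0.645.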

How the data were processed

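Primary neurospheres of single mice were measured in 4 control and 3 Med23 CKO libraries, and each column was matched to its mouse by the sample title. For sequencing the paper gives 3 mice in each group without naming the controls, and all 4 control libraries were used here. The authors checked reads with FastQC, aligned them to mm10 with TopHat and calculated FPKM per gene with Cuffdiff, and these FPKM values are deposited for each library. The deposited table also holds group means, fold changes, test scores and p-values and q-values of the authors' comparison, which were not used. Columns of samples without a label numbered 0. Depth cannot be read from FPKM.

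Values were taken as log2(FPKM + 1) for genes with a mean of at least 0.5 FPKM and compared by limma 3.58.1 in R 4.3.3 (eBayes with trend, two-sided, Benjamini-Hochberg adjustment over 14151 genes). This scale understates the change of low genes. Exact permutation of single genes over 35 assignments and correlations used Python 3.11.15 with numpy 2.4.6. The limma step was tested on simulated data.

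The members and lists were chosen with earlier results of these data known. The text names Med23, every member, the genes of each pathway list at a limma unadjusted p under 0.05, up to 3 of each list by mean FPKM, and the 3 genes most like each member. Etv1, Etv4, Erf, Spred3, Fgfr2, Epha4, Fosl1, Errfi1, Erbb2, Erbb3, Fos and Xist were chosen after their values were seen. So were the marker genes named singly, the genes downstream of ERK at their extreme in 1 library and the genes called without a library. Some values under this rule are not reported here. Gene positions and promoters are from RefSeq on GRCm38.p6, and promoters were taken for 8 of 10 members. Entries on chr18, where Spry4 lies, were left out for the members but were not filtered from the windows over all genes. Alternatives were pseudocounts of 0.1 and 5, no filter or a mean of at least 1 FPKM, quantile normalization, median centring, limma without trend, with robust empirical Bayes (statmod 1.5.0) or with array weights, a term for the leading digit of the mouse numbers, log2 ratios of the group means, and each library left out in turn.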

Additional observations from a re-analysis of the deposited data

How the results depend on the processing

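Over 18 alternatives for each member, the direction of the log2 fold change had the same sign in all of them for Dusp4 (0.11 to 0.47), Dusp5 (-1.0048 to -0.23), Spry2 (-0.74 to -0.07), Spred1 (0.0019 to 0.25) and Ier3 (0.05 to 0.55), with sizes that moved by more than 1.5 times and came close to 0. For Dusp1 the log2 ratio of group means was 0.18 and leaving out 1 library gave -0.73 to 0.28. Leaving out 1 library gave -0.21 to 0.11 for Dusp6, -0.98 to 0.056 for Spry1, -0.76 to 0.23 for Spry4 and -0.52 to 0.047 for Spred2, so their direction rests on single libraries. Members lower at an unadjusted p under 0.05 numbered 1 with array weights (Dusp5, -1.0048, limma unadjusted p = 0.00461, adjusted p = 0.594) and 0 to 2 with a library left out, the 2 being Dusp1 and Dusp5 without KO_214. These weights, which stopped before full convergence, moved Med23 to -0.43 (limma unadjusted p = 0.0205, adjusted p = 0.594). Members with all Med23 CKO values below the controls numbered 0 to 2 with a library left out, and members with all above 0 to 1, Dusp4 without WT_213. The median over the members ran from -0.48 (array weights) to 0.08 (without WT_220).

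Over all genes, 273 were lower at an unadjusted p under 0.05 without the filter, 887 with array weights and 70 to 410 with a library left out (79 without WT_215, 76 without WT_220, 410 without KO_117, 70 without KO_218), and 195, 193 and 45 to 354 were higher (45 without WT_215, 354 without KO_117, 139 without KO_218); the causes were not tested. Genes higher at an adjusted p under 0.05 numbered 0 to 1 with a library left out, Snora64 without KO_214 and Gm38671 without KO_218. No paired analysis was possible because the groups compared share no mouse number. With 3 and 4 libraries, the intervals of Spry1 and Spry4 span more than 2-fold either way.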

Other observations

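Egr1 and the Sprouty genes, all of which ERK signaling induces, did not keep 1 ratio across libraries, and this comparison was chosen after the values were seen. Egr1 had 146.5 FPKM in WT_215, 23.7 in WT_116, 37.9 in WT_213 and 159.8 in WT_220, against 4.76, 36.9 and 14.5 FPKM in KO_117, KO_214 and KO_218. KO_117 was the lowest of the 7 libraries for Egr1 and the highest for Spry4. The ratio of Egr1 to Spry1 was 2.47, 1.501, 1.21 and 1.79 in the controls, 0.0594 in KO_117, 2.02 in KO_214 and 0.660 in KO_218. Over the 7 libraries Egr1 correlated with Spry1 at only 0.249, whereas Etv4 did so at 0.996.

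KO_117 was the lowest library for 9 of the 19 other genes downstream of ERK, Egr1, Egr2, Egr3, Fos, Fosb, Fosl1, Junb, Etv1 and Epha2. It was the highest for Etv5 and for Elk1, which ERK phosphorylates. Over all tested genes KO_117 was lowest for 20.6%. Fos had 27.6, 22.1, 26.0 and 21.8 FPKM in the controls and 5.13, 25.0 and 12.2 FPKM in KO_117, KO_214 and KO_218. WT_220 was the highest library for 10 of the 19, beside 15.1% of all tested genes, and its Spry1 and Spry2 were the highest of all libraries too.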
